A study of Equus caballus with 24 samples.

Results

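The pituitary of juvenile Mongolian horses (MHs) was compared with the long bone of juvenile MHs by RNA-seq. The comparison used the 3 libraries whose labels begin with MHPJ (juvenile MH pituitary) and the 3 whose labels begin with MHLBJ (juvenile MH long bone), which are 6 of the 24 libraries of the series, and it covered every gene in the count table. The whole series set MHs beside Debao ponies (DPs), a short breed from southern China, with pituitary and long bone taken from juveniles and adults of each breed. All horses were female, and the tissue came from animals at slaughter. The study took both tissues from the same horses, but the labels do not say which horse stands behind a replicate number. The study describes the long bone pieces as epiphysis, the end of the bone that holds the growth plate. The 6 juvenile DP libraries, 3 of pituitary (DPPJ) and 3 of long bone (DPLBJ), served only as a reference for the labels and for a test of whether the tissue difference was equal in both breeds.

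The pituitary has an anterior lobe, whose endocrine cells make growth hormone, prolactin and the other trophic hormones, and a posterior lobe, which is an outgrowth of the hypothalamus built of axon endings and glia. Growth hormone leaves the anterior lobe, acts through its receptor in liver and in the growth plate, and induces insulin-like growth factor 1. A long bone end holds cartilage, the osteoblasts and osteocytes that lay down and keep bone matrix, the osteoclasts that resorb it, and marrow with blood-forming cells, fat cells and vessels. Expression below is given in RPKM, the number of reads per kilobase of gene scaled to the reads of the library, as deposited for each library.

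The libraries labelled pituitary did not carry the defining genes of the anterior lobe. Growth hormone (GH) was at 0, 3.36 and 0.12 RPKM in MHPJ replicates 1, 2 and 3, against 13174, 17634 and 22757 RPKM in the 3 DPPJ libraries. POMC, the precursor of corticotropin, was at 0, 5.62 and 0 RPKM in MHPJ and between 3284 and 15134 RPKM in DPPJ. Prolactin (PRL) did not exceed 0.79 RPKM, and the alpha chain shared by the glycoprotein hormones, listed as CG, did not exceed 2.02 RPKM in MHPJ. In MHLBJ, GH reached 2.60 RPKM and POMC 3.68 RPKM, so that MHPJ replicates 1 and 3 were below and replicate 2 slightly above the highest long bone library. The 5 anterior pituitary hormone genes found by symbol summed to 0.15, 9.89 and 0.12 RPKM in MHPJ, to 0.63, 6.80 and 1.20 RPKM in MHLBJ, and to between 33561 and 42464 RPKM in DPPJ.

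A factor that specifies anterior pituitary cells was also near 0. POU1F1, which specifies the cells that make GH, PRL and thyrotropin, reached 0.15 RPKM in MHPJ and lay between 90.4 and 119 RPKM in DPPJ. The posterior lobe hormones AVP and OXT had at most 0.12 RPKM and 0 RPKM in MHPJ. AVP was at 7.88, 477 and 0.28 RPKM in DPPJ replicates 1, 2 and 3 and OXT at 0, 18.2 and 0 RPKM, so that 1 of the DPPJ libraries carried both. Both hormones are made by neurons whose cell bodies lie in the hypothalamus. These libraries are therefore called MHPJ, or libraries labelled pituitary, in what follows.

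Replicate 2 of MHPJ stood apart from the other two. Across genes, the log expression of replicates 1 and 3 correlated at r = 0.962, whereas replicate 2 correlated at 0.771 with replicate 1 and at 0.749 with replicate 3, and at 0.761 to 0.789 with the long bone libraries. By contrast, the 3 MHLBJ libraries correlated at 0.955 to 0.958 with one another. In replicate 2, 398 genes were at least 8-fold higher and 621 at least 8-fold lower than in both other MHPJ libraries, and the same counts were 15 and 44 for replicate 1 and 7 and 109 for replicate 3. Results below use all 6 libraries, and counts of a list that changed without MHPJ replicate 2 are given both ways. Depth did not separate the tissues, at 11433209 to 16153537 reads on genes in MHPJ and 12103499 to 22317330 in MHLBJ. Mitochondrial genes took 10.1 to 18.1% of the reads in MHPJ and 3.99 to 5.60% in MHLBJ, while ribosomal protein genes took 1.68 to 4.25% and 6.11 to 6.98%. Whether these shares bear on the results was not tested.

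**Figure D1:**
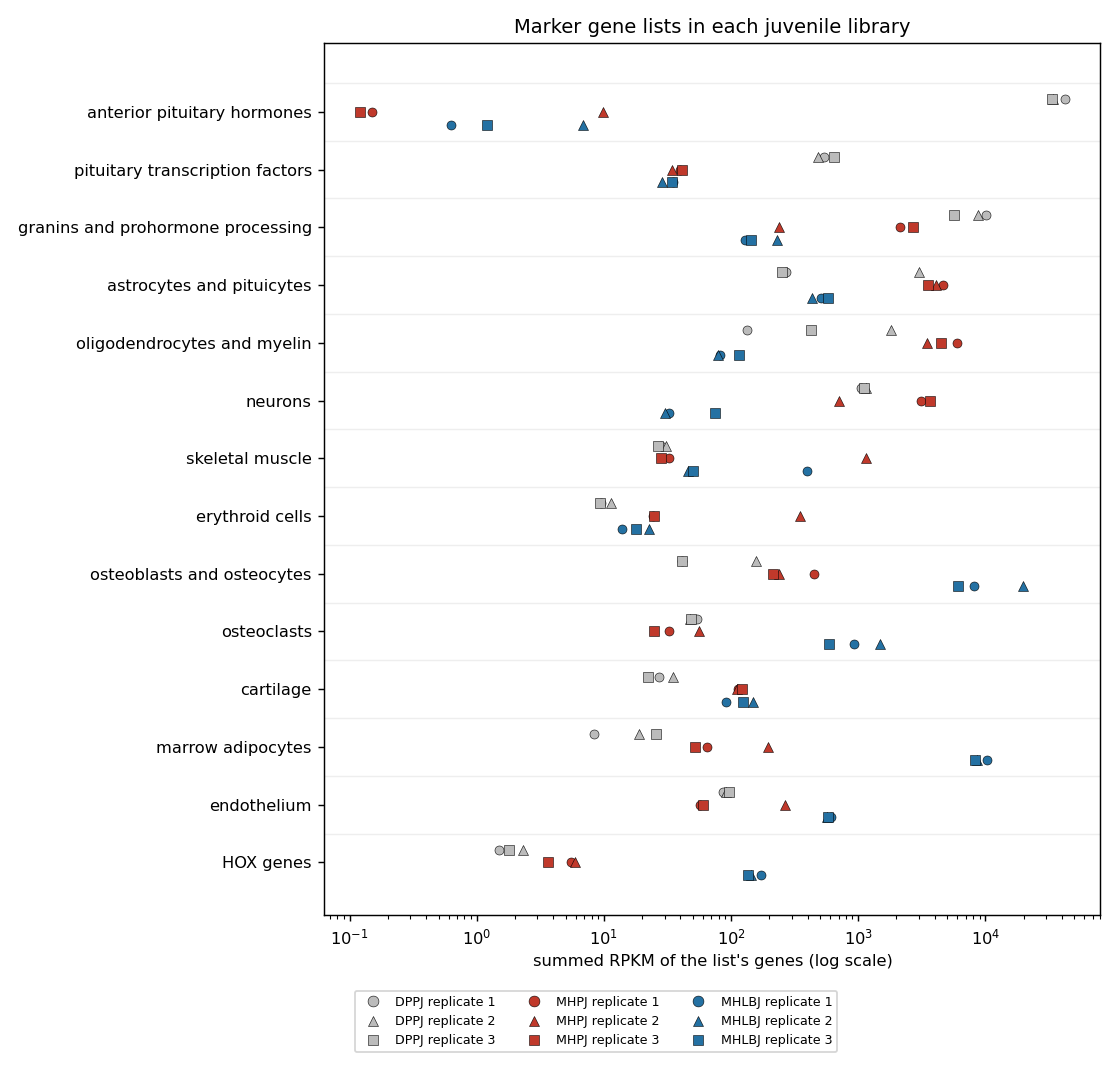
Summed RPKM of 14 marker gene lists (horizontal log axis) in each juvenile pituitary library of DPs (DPPJ, grey) and MHs (MHPJ, red) and in each MHLBJ library (blue), with the circle, triangle and square marking replicates 1, 2 and 3. The MHPJ libraries sit with long bone for anterior pituitary hormones and above it for glial and neuronal lists, and MHPJ replicate 2 is far to the right of the other 2 MHPJ libraries for skeletal muscle and erythroid genes.

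The tissue comparison addressed which genes separate the 2 juvenile MH tissues. Of 14339 genes tested, 3465 were DEGs, defined by an edgeR quasi-likelihood adjusted p under 0.05 and a fold change over 2. Of these, 2103 were higher in MHPJ, or 14.7% of the genes tested, and 1362 were lower, or 9.5%. DEGs in the higher direction made up 60.7% of the calls with edgeR, whereas limma on log2(RPKM + 1) called 1485 higher and 1541 lower, so that 49.1% were higher, and limma on log2(RPKM + 0.1) gave 52.1%. Without MHPJ replicate 2, the test called 3428 genes higher (22.8% of 15046 tested) and 2789 lower (18.5%). Of the 3465 DEGs, 3370 (97.3%) were also called without that library, and all 3370 had the same direction, although they made up only 54.2% of the larger set. With any one of the 6 libraries left out in turn, 337 genes stayed called as higher and 298 as lower in every case. The study describes 3 juvenile MHs as the source of each tissue, and the labels number the libraries without naming an animal. In bulk tissue, fewer cells of a type and less RNA per cell cannot be told apart.

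**Figure D2:**
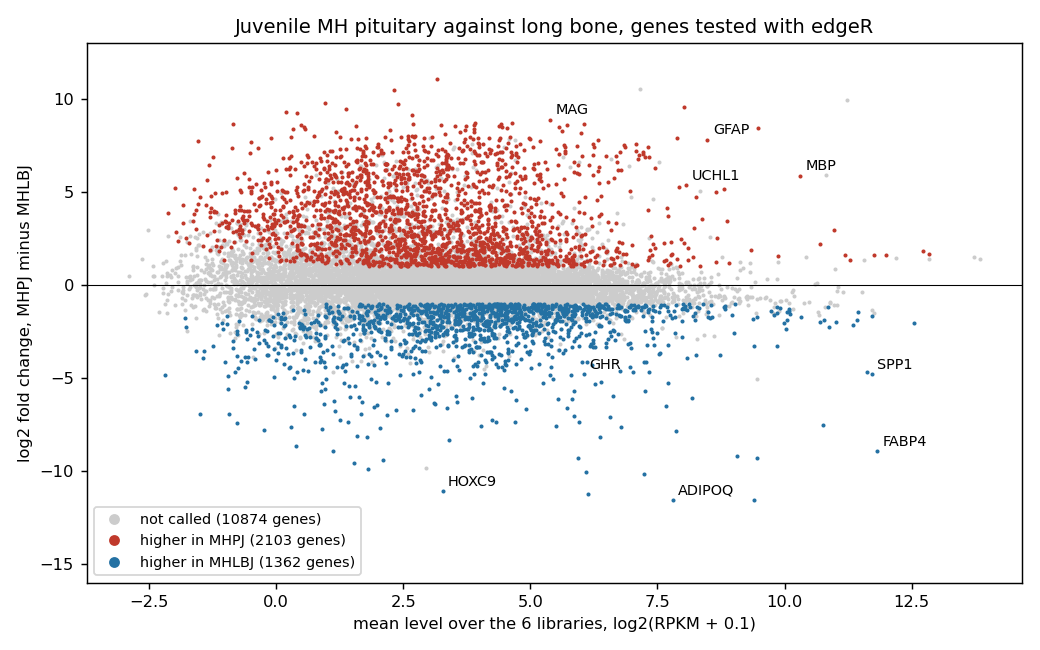
The log2 fold change of MHPJ over MHLBJ (vertical axis) against the mean level over the 6 libraries, as log2(RPKM + 0.1), for the 14339 genes tested with edgeR. The 2103 red genes were called higher in MHPJ and the 1362 blue genes higher in MHLBJ, and MBP and GFAP lie at the top right while FABP4, ADIPOQ and SPP1 lie at the bottom right.

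Among DEGs with at least 10 RPKM and no overlap between libraries, the genes with the largest increases in MHPJ included DBNDD1, SLC1A1, MAG, B3GAT1, GJB6, ERMN, TMEM132B, INA and SEZ6L. Among them ERMN belongs to oligodendrocytes, the myelin-forming cells of the brain, and MAG encodes a myelin adhesion protein. GJB6 encodes a connexin of astrocytes, SLC1A1 a neuronal glutamate transporter and INA a neuronal intermediate filament. B3GAT1, the enzyme that makes the HNK-1 sugar epitope of neural cells, was at 36.5, 63.8 and 47.6 RPKM in MHPJ and at 0.12, 0.02 and 0.21 RPKM in MHLBJ. Its 3 MHPJ libraries were alike and far above the long bone (log2 fold change 8.73 ± 0.70 SE, edgeR adjusted p = 0.00370). DBNDD1 had no read in any MHLBJ library and was at 9.14, 2.34 and 19.6 RPKM in MHPJ, which makes it at least 37.3-fold higher against a floor of 3 reads per library. SEZ6L, a membrane protein of neurons, was at 23.7 and 32.4 RPKM in MHPJ replicates 1 and 3 and at 0.31 RPKM in replicate 2, still above the 0.12 RPKM that was highest in long bone. Of these 9 genes, B3GAT1 and TMEM132B were called with any one library left out, and the other 7 lost the call in at least 1 of those fits.

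The 10 genes with the largest decrease were ADIPOQ, TUSC5, PLIN1, HOXC9, CIDEC, THRSP, IBSP, DMP1, FABP4 and SERPINA6. ADIPOQ (adiponectin), PLIN1 and CIDEC (coats of the lipid droplet), TUSC5, THRSP and FABP4 (a fatty acid carrier) are genes of fat cells, IBSP and DMP1 are proteins of mineralising bone, and SERPINA6 encodes the corticosteroid-binding globulin. TUSC5 was at 0, 0.81 and 0.51 RPKM in MHPJ and at 1164, 1374 and 1524 RPKM in MHLBJ, a log2 fold change of -11.55 ± 1.07 SE (edgeR adjusted p = 0.00423). THRSP had 1 read in each MHPJ library and 746 to 1941 reads in MHLBJ, and the ratio between the groups was 1133 with a 95% counting interval of 387 to 5494. All 10 were at or below 41.1 RPKM in every MHPJ library, the highest being FABP4 in replicate 2, and all 10 separated the 2 tissues without overlap, as the rule required. With a library left out, 7 of the 10 kept the call in every fit, and IBSP, DMP1 and FABP4 did not.

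**Figure D3:**
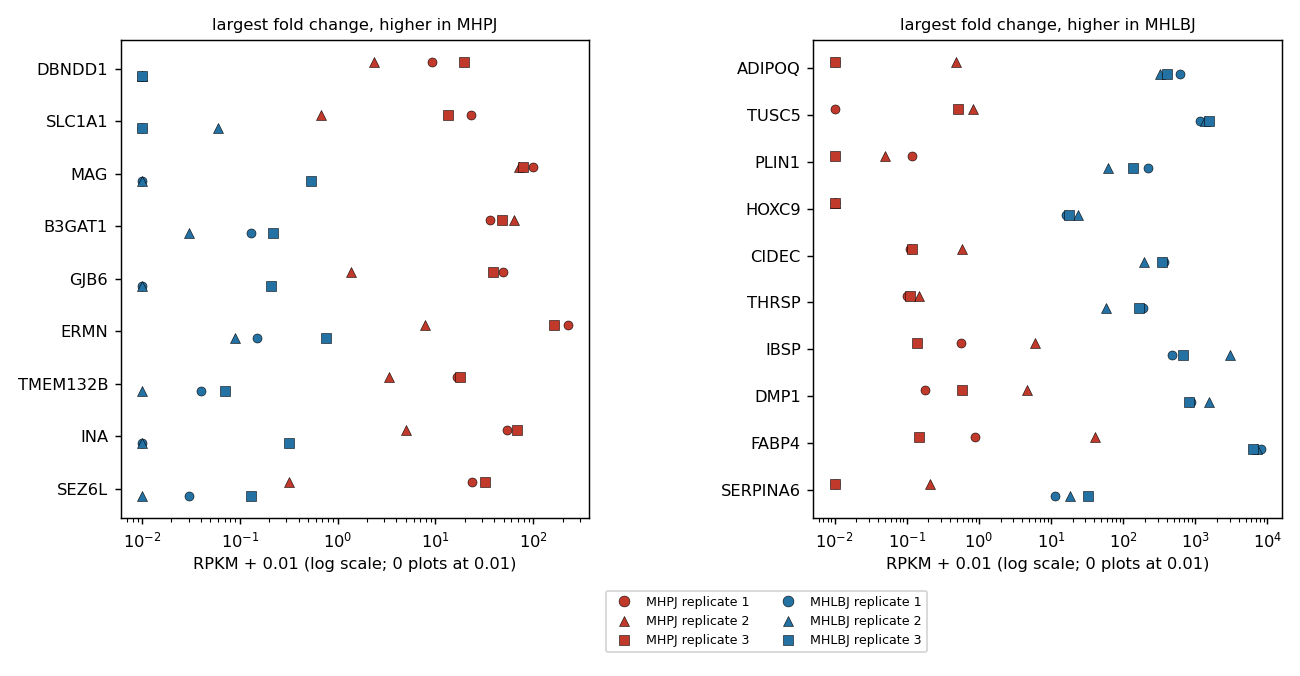
RPKM + 0.01 on a log axis in each library for 9 of the 10 DEGs with the largest increase and the 10 with the largest decrease, MHPJ in red and MHLBJ in blue, with the circle, triangle and square marking replicates 1, 2 and 3. Among the genes higher in MHPJ the triangle of replicate 2 is often the lowest, as for SEZ6L at 0.31 RPKM, and among the genes higher in MHLBJ it is often the highest MHPJ value, as for FABP4 at 41.1 RPKM.

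Myelin genes were raised in all 3 MHPJ libraries. Of 14 oligodendrocyte and myelin genes tested, 13 were higher and none was lower, with and without MHPJ replicate 2, and the median log2 fold change was 7.49 beside 0.06 over all genes tested. Their summed level was 6014, 3460 and 4447 RPKM in MHPJ and 82.4, 79.2 and 115 RPKM in MHLBJ. Over all genes tested, 14.7% were higher, and 22.8% without replicate 2. With any one library left out, 4 of the 13 myelin genes kept the call. MBP (myelin basic protein) was at 2993, 2379 and 2101 RPKM in MHPJ and at 38.4, 41.6 and 53.0 RPKM in MHLBJ. The 3 MHPJ libraries were close to one another and did not overlap with the long bone (log2 fold change 5.87 ± 0.30 SE, edgeR adjusted p = 0.00227). CNP, an enzyme of the myelin sheath, was at 398, 514 and 257 RPKM against 23.8, 18.9 and 24.9 RPKM, and its log2 fold change was 4.17 ± 0.32 SE (edgeR adjusted p = 0.00351). MBP and CNP kept the call with any one library left out.

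The oligodendrocyte and myelin genes split within MHPJ. MAG (a myelin adhesion protein) and CNP were in replicate 2 close to their levels in the others, whereas OPALIN, which is restricted to central myelin, was at 649 and 759 RPKM in replicates 1 and 3 and at 2.46 RPKM in replicate 2. MOG, a surface protein of central myelin that was picked after its values were seen, was at 148 and 133 RPKM in replicates 1 and 3 and at 0.81 RPKM in replicate 2. The level of MOG in replicate 2 was thus close to the 0.76 RPKM of MHLBJ replicate 3. Schwann cells make the myelin of peripheral nerves, and PMP22 and PRX showed the reverse order. PMP22, a peripheral myelin protein, was at 22.6, 1847 and 11.7 RPKM in MHPJ, and PRX (periaxin, of the Schwann cell membrane) at 1.30, 854 and 2.10 RPKM.

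None of the 6 Schwann cell genes tested passed the test with all 6 libraries, and without MHPJ replicate 2 there was 1 higher and 1 lower. Skeletal muscle and red cell genes were also high in MHPJ replicate 2. CKM, the creatine kinase of muscle, was at 0.50, 289 and 1.12 RPKM in MHPJ, and the summed level of 15 muscle genes was 1155 RPKM in replicate 2 against 32.4 and 28.2 RPKM. In long bone the muscle genes were high in replicate 1 alone, where CKM was at 81.9 RPKM and the sum at 393 RPKM. HBB (beta globin) was at 0.55, 237 and 0 RPKM in MHPJ and at 0.38, 7.54 and 3.66 RPKM in MHLBJ. None of the 12 muscle genes tested was called, and 5 were lower in MHPJ without replicate 2, where 18.5% of all genes tested were lower. Of the 8 erythroid genes tested, SPTB and ANK1, components of the red cell membrane skeleton, were higher in MHPJ, where 14.7% of all genes tested were higher. Unlike HBB, SPTB was above long bone in all 3 MHPJ libraries, at 5.35, 41.7 and 9.78 RPKM against at most 0.42 RPKM. SPTB stayed called without replicate 2 (edgeR adjusted p = 0.000485).

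Astrocyte genes were higher in MHPJ as well. Of 13 astrocyte and pituicyte genes tested, pituicytes being the glia of the posterior lobe, 9 were higher and 1 was lower, with a median log2 fold change of 5.26, and without MHPJ replicate 2 this was 11 and 2 of 14. Over all genes tested, 14.7% were higher and 9.5% lower, and 22.8% and 18.5% without replicate 2. No member of the list kept its call in every fit with a library left out. GFAP, the filament protein of astrocytes, was at 1218, 26.4 and 892 RPKM in MHPJ and at 0.88, 0.13 and 8.92 RPKM in MHLBJ. Replicate 2 was far below the other MHPJ libraries but above all 3 long bone libraries, and the log2 fold change was 7.82 ± 2.16 SE (edgeR adjusted p = 0.0417, and 0.00493 without replicate 2). With any of the other 5 libraries left out GFAP lost the call, at adjusted p of 0.0669 to 0.13. MHLBJ replicate 3 was the highest long bone library for GFAP, S100B and SNAP25. S100B, a calcium-binding protein of glia, was at 762, 2919 and 588 RPKM against 1.66, 0.34 and 10.9 RPKM, so that here replicate 2 was the highest library. FABP7, a lipid carrier of radial glia and astrocytes, was at 842, 13.7 and 568 RPKM against 7.99, 22.5 and 7.53 RPKM, with replicate 2 inside the range of the long bone. The gene that was lower, ALDH1L1, encodes a folate enzyme used as an astrocyte marker and was at 12.5, 26.3 and 17.1 RPKM against 45.7, 52.8 and 66.0 RPKM. It was named after its values were seen, as the only member that went the other way.

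Neuronal genes rose together. Of 19 tested, 18 were higher in MHPJ and none was lower, the median log2 fold change was 7.0, and without MHPJ replicate 2 all 22 genes tested were higher. Their summed level was 3122, 710 and 3683 RPKM in MHPJ and 30.3 to 74.7 RPKM in MHLBJ. Over all genes tested, 14.7% were higher, and 22.8% without replicate 2. Only 3 of the 18 neuronal genes kept the call with any one library left out. In DPPJ the neuronal sum was 1047 to 1155 RPKM, above MHPJ replicate 2 and below MHPJ replicates 1 and 3. UCHL1, a ubiquitin hydrolase abundant in neurons, was at 420, 354 and 798 RPKM against 11.2, 14.8 and 14.2 RPKM, and it kept the call with any one library left out (log2 fold change 5.37 ± 0.45 SE, edgeR adjusted p = 0.00375). NEFM, a neurofilament protein of axons, was at 365, 124 and 542 RPKM against 0.53, 2.69 and 10.5 RPKM. The light neurofilament chain NEFL, which the files give by description only, was at 368, 94.8 and 363 RPKM against 0.33, 2.05 and 5.41 RPKM. STMN2, a regulator of microtubules in growing axons, was at 311, 66.4 and 316 RPKM against 0.16, 0 and 4.16 RPKM. NEFM, NEFL and STMN2 thus stayed well above long bone in replicate 2.

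SNAP25 and the enzymes of GABA synthesis were lower in replicate 2. SNAP25, a protein of vesicle fusion at the synapse, was at 487, 6.12 and 460 RPKM in MHPJ and at 0.37, 0.27 and 5.27 RPKM in MHLBJ, so that replicate 2 was barely above the highest long bone library. GAD1 and GAD2, which make the inhibitory transmitter GABA and were chosen after their values were seen, were at 106 and 145 RPKM in replicate 1, at 34.1 and 123 RPKM in replicate 3 and at 0.28 and 1.19 RPKM in replicate 2. In replicate 2 GAD1 and GAD2 lay within the range of the long bone, where the highest library had 0.56 and 1.35 RPKM.

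The receptors for GABA and glutamate followed the neurons. Of 27 subunits tested, 15 were higher in MHPJ and none was lower, and without replicate 2 this was 33 of 36. The share of all genes tested that were higher was 14.7%, and 22.8% without replicate 2. With any one library left out, 3 of the 15 kept the call. The summed level of the 37 subunits was 753, 191 and 847 RPKM in MHPJ and 49.7 to 64.4 RPKM in MHLBJ. GRIA1, a subunit of the AMPA receptor, was at 98.3, 1.18 and 74.5 RPKM against 1.34, 0.47 and 1.55 RPKM, and MHPJ replicate 2 lay within the range of the long bone. GRIK2, a kainate receptor subunit chosen after its values were seen, was alike in all 3 MHPJ libraries at 26.1, 28.7 and 31.8 RPKM and was at 0.79, 1.91 and 1.49 RPKM in long bone (log2 fold change 4.42 ± 0.40 SE, edgeR adjusted p = 0.00416). GRIN2C, an NMDA receptor subunit, was at 25.8, 65.5 and 23.2 RPKM against 13.5, 11.8 and 13.4 RPKM, and it was called only with replicate 2 (log2 fold change 0.94 without it). GABRA3 (an alpha subunit of the GABA-A receptor) was at 50.4, 34.6 and 65.5 RPKM against 34.0, 25.0 and 32.1 RPKM and was not called.

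Genes of regulated secretion were raised in MHPJ replicates 1 and 3, and less so or not in replicate 2, although GH, PRL and POMC were not. Of 9 granins and prohormone-processing genes tested, 6 were higher in MHPJ and 8 without replicate 2, and the median log2 fold change was 6.26. Over all genes tested, 14.7% were higher, and 22.8% without replicate 2. None of the 9 kept the call in every fit with a library left out. SCG2 (secretogranin II, a protein of secretory granules) was at 218, 65.5 and 196 RPKM in MHPJ and at 0, 0.24 and 1.96 RPKM in MHLBJ. SCG3, which sorts granins into the granule, was at 267, 21.7 and 360 RPKM against 1.35, 1.18 and 6.84 RPKM. CPE, the carboxypeptidase that trims prohormones, was at 967, 34.4 and 897 RPKM against 78.6, 173 and 72.2 RPKM and was not called with replicate 2 in the comparison (edgeR adjusted p = 0.126, and 0.00187 without it). In the DPPJ libraries the summed level of this list was 5721 to 10043 RPKM, above the 239 to 2697 RPKM of MHPJ. The lowest of these, MHPJ replicate 2 at 239 RPKM, was close to the 228 RPKM of MHLBJ replicate 2. Secretory granule genes are also used by neurons.

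Among the receptors for hypothalamic hormones, DRD2, the dopamine receptor, was the only one tested with all 6 libraries, at 0.44, 0.33 and 11.3 RPKM in MHPJ, and it was not called (edgeR adjusted p = 0.0828). Without MHPJ replicate 2, the 3 receptors tested, DRD2, CRHR1 and SSTR2, were all higher in MHPJ (edgeR adjusted p = 0.0222, 0.000277 and 0.0126). SSTR2, a receptor for somatostatin, was at 0.59, 0.07 and 1.77 RPKM in MHPJ and at most 0.12 RPKM in MHLBJ. CRHR1, the receptor for corticotropin-releasing hormone, was at 13.2, 0 and 8.07 RPKM in MHPJ and did not exceed 0.05 RPKM in MHLBJ. With 2 reads in all of MHLBJ, the ratio was 369 with a 95% counting interval of 102 to 3055. Of 14 pituitary transcription factors found by symbol, 6 were tested, and 2 were higher, among them SOX2, while without replicate 2 another 2, among them PITX1, were lower. Over all genes tested, 14.7% were higher, and without replicate 2, 22.8% were higher and 18.5% lower. SOX2, a factor of neural and pituitary stem cells, was at 31.1, 6.87 and 26.2 RPKM against at most 0.54 RPKM. PITX1, an early pituitary factor that also patterns the hind limb, was at 0.14, 8.71 and 0.10 RPKM in MHPJ and at 11.0, 11.9 and 9.13 RPKM in MHLBJ (edgeR adjusted p = 0.397, and 0.000252 without replicate 2). Luteinising hormone beta (LHB), found by description and named after its values were seen, was at 1.27, 6.52 and 1.42 RPKM in MHPJ. LHB did not exceed 0.14 RPKM in MHLBJ and lay between 54.3 and 235 RPKM in DPPJ. It was called higher in MHPJ (log2 fold change 5.08 ± 1.14 SE, edgeR adjusted p = 0.0255, and 0.0135 without replicate 2). This call was lost in at least 1 fit with a library left out.

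Of 13 posterior lobe and hypothalamic genes found by symbol, 2 were tested with all 6 libraries, and VIP alone was called. SST and TRH were present in 2 of the 3 MHPJ libraries and VIP in all 3, while AVP and OXT were near 0. SST (somatostatin, which inhibits GH release) was at 24, 0 and 69.1 RPKM in MHPJ and at most 0.37 RPKM in MHLBJ, and TRH (thyrotropin-releasing hormone) was at 19.1, 0 and 1.95 RPKM against at most 0.13 RPKM. Neither was tested with all 6 libraries, because of the filter on low counts, and without replicate 2 both were higher (edgeR adjusted p = 0.000857 for SST and 0.00459 for TRH). VIP, a neuropeptide, was at 8.68, 49.7 and 9.39 RPKM in MHPJ and at most 0.14 RPKM in MHLBJ, and it was called (log2 fold change 8.58 ± 1.29 SE, edgeR adjusted p = 0.0102).

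Genes of motile cilia, which line the brain ventricles as part of ependymal cells, were higher in MHPJ for 13 of 14 tested, with and without replicate 2, and the median log2 fold change was 4.53. Over all genes tested, 14.7% were higher, and 22.8% without replicate 2. With any one library left out, 5 of the 13 cilia genes kept the call. TEKT1, a filament protein of the axoneme, was at 21.9, 19.5 and 7.21 RPKM in MHPJ and at 0.41, 0.69 and 0.53 RPKM in MHLBJ, and it kept the call with any one library left out (log2 fold change 4.92 ± 0.53 SE, edgeR adjusted p = 0.00546). RSPH1, a protein of the radial spoke, was at 20.7, 21.4 and 10.7 RPKM against 0, 0.37 and 1.05 RPKM. For the cilia genes it was replicate 3 that was lowest, with a summed level of 52.0 RPKM against 143 and 138 RPKM in replicates 1 and 2. The DPPJ libraries had 140, 144 and 107 RPKM, so this signal was not particular to MHPJ. None of the 3 choroid plexus genes tested was called.

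The long bone libraries carried a strong signal of fat cells. Of 12 marrow adipocyte genes tested, 9 were lower in MHPJ (10 without MHPJ replicate 2) and none was higher, the median log2 fold change was -5.67, and 7 kept the call with any one library left out. Their summed level was 10391, 8535 and 8244 RPKM in MHLBJ and 64.6, 196 and 52.3 RPKM in MHPJ. Of all genes tested, 9.5% were lower in MHPJ, and 18.5% without MHPJ replicate 2. FABP4 alone was at 8057, 7179 and 6348 RPKM in MHLBJ and at 0.87, 41.1 and 0.14 RPKM in MHPJ (log2 fold change -8.95 ± 2.25 SE, edgeR adjusted p = 0.0330), and without MHPJ replicate 2 its log2 fold change was -13.76. ADIPOQ was at 614, 321 and 404 RPKM against 0, 0.47 and 0 RPKM. LEP (leptin), which was named after its values were seen, was at 7.74, 2.09 and 2.84 RPKM in MHLBJ and had 1 read in all of MHPJ. The ratio for LEP was 127 with a 95% counting interval of 22.5 to 5067. The 3 MHLBJ libraries were within a factor of 2 of one another for FABP4, ADIPOQ and TUSC5, but not for LEP, PLIN1 or THRSP. PLIN1 was at 224, 61.0 and 137 RPKM and THRSP at 186, 57.5 and 165 RPKM in MHLBJ.

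Bone-forming genes were lower in MHPJ for 12 of 14 osteoblast and osteocyte genes tested and 13 without replicate 2, and all 14 separated the libraries without overlap, where 24.7% of all genes tested did so in that direction. The median log2 fold change was -5.15. Over all genes tested, 9.5% were lower, and 18.5% without replicate 2. With any one library left out, 6 of the 12 osteoblast and osteocyte genes kept the call. SPP1 (osteopontin, a protein of bone matrix that macrophages also make) was at 4991, 11641 and 2823 RPKM in MHLBJ and at 415, 82.2 and 196 RPKM in MHPJ. IBSP (bone sialoprotein) was at 478, 3035 and 682 RPKM against 0.55, 5.90 and 0.13 RPKM, and DMP1, a protein of osteocytes, at 879, 1526 and 817 RPKM against 0.17, 4.65 and 0.58 RPKM. MHLBJ replicate 2 was the highest library for SPP1, IBSP and DMP1. PTH1R, the receptor for parathyroid hormone that was chosen after its values were seen, was at 69.2, 105 and 79.1 RPKM in MHLBJ and at 1.97, 2.40 and 2.94 RPKM in MHPJ (log2 fold change -5.05 ± 0.32 SE, edgeR adjusted p = 0.00263). COL1A2, a chain of bone collagen, was at 889, 2312 and 913 RPKM against 2.57, 117 and 0.61 RPKM, and it passed the test only without replicate 2 (edgeR adjusted p = 0.103 with it and 0.000739 without).

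Osteoclast genes were lower in MHPJ for 7 of 11 tested, and for 8 without replicate 2, with a median log2 fold change of -2.95. CTSK, the protease that digests bone collagen, was at 348, 635 and 240 RPKM in MHLBJ and at 6.88, 17.7 and 6.68 RPKM in MHPJ. ACP5, the acid phosphatase of osteoclasts, was at 230, 305 and 121 RPKM against 0.56, 2.41 and 0.30 RPKM (log2 fold change -7.63 ± 1.00 SE, edgeR adjusted p = 0.00758). MHLBJ replicate 2 was highest and replicate 3 lowest for CTSK, ACP5 and the proton pump subunit ATP6V0D2, and these 3 genes kept the call with any one library left out. Matrix metalloproteinases of bone were also higher in long bone, with MMP13 at 198, 297 and 86.0 RPKM against 1.00, 4.45 and 3.29 RPKM and MMP9, a gelatinase of osteoclasts and neutrophils, at 112, 152 and 69.1 RPKM against 0.30, 4.13 and 0.29 RPKM. Of the 15 MMP genes tested, 3 were lower and 5 higher in MHPJ, and the higher ones included MMP7 at 107, 133 and 81.9 RPKM against 57.4, 37.1 and 50.3 RPKM. Without MHPJ replicate 2, 7 were lower and 4 higher, and MMP7 was no longer called because its fold change fell below 2 (log2 fold change 0.97). Beside these osteoclast and MMP counts, 9.5% of all genes tested were lower and 14.7% higher, and 18.5% and 22.8% without replicate 2.

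Cartilage genes did not follow the bone genes. COL2A1, the main collagen of cartilage, was at 0.30, 1.02 and 0.55 RPKM in MHLBJ and at 0.35, 28.4 and 0.45 RPKM in MHPJ, so that the highest value stood in MHPJ replicate 2. ACAN (aggrecan, the main cartilage proteoglycan) did not exceed 0.56 RPKM in MHLBJ, and COL10A1, the collagen of the hypertrophic growth plate, did not exceed 0.14 RPKM. COL2A1, ACAN and COL10A1, the defining genes of growth plate cartilage, were thus near 0 in all 3 libraries labelled long bone. Of the 15 cartilage genes tested, 4 were lower in MHPJ (CHAD, SOX5, COL11A2 and PRG4) and 4 were higher (COL9A1, COL9A2, COL9A3 and SOX9). Without MHPJ replicate 2, 4 of 16 were lower and 6 higher. Of all genes tested, 9.5% were lower and 14.7% higher, and without replicate 2 the shares were 18.5% and 22.8%. CHAD, a matrix protein of cartilage and bone, was at 29.3, 57.6 and 31.3 RPKM in MHLBJ against 0.08, 0.46 and 0.17 RPKM in MHPJ. COL9A3, a chain of collagen IX named as a member that went the other way, was at 10.9, 13.1 and 9.04 RPKM in MHPJ against 0.09, 0.10 and 0.04 RPKM (log2 fold change 7.18 ± 0.45 SE, edgeR adjusted p = 0.00254). COL9A1 was at 44.9, 1.79 and 53.3 RPKM in MHPJ and at most 0.45 RPKM in MHLBJ.

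Over all 39 collagen chains tested, 8 were higher and 3 lower in MHPJ, and without replicate 2 this became 10 higher and 18 lower. Of all genes tested, 14.7% were higher and 9.5% lower, and 22.8% and 18.5% without replicate 2. COL1A2 was among the chains called only without replicate 2, as was COL6A2, a chain of microfibrillar collagen VI. COL6A2 was at 7.66, 102 and 6.14 RPKM in MHPJ and at 147, 146 and 141 RPKM in MHLBJ, and its edgeR adjusted p was 0.243 with replicate 2 and 0.000139 without it. COL13A1, a membrane collagen named after its values were seen, was uniform at 1.85, 1.96 and 1.52 RPKM against 36.7, 30.1 and 31.6 RPKM and had an edgeR adjusted p of 0.00207, the lowest value reached in the comparison. Among the SOX factors, SOX10, which drives glial and Schwann cell genes, was at 22.0, 59.2 and 18.1 RPKM in MHPJ and at most 0.67 RPKM in MHLBJ. SOX5, a partner of SOX9 in cartilage, was at 25.7, 30.0 and 29.5 RPKM in MHLBJ and at 6.70, 5.19 and 6.93 RPKM in MHPJ (log2 fold change -2.11 ± 0.20 SE, edgeR adjusted p = 0.00453).

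Stromal, vascular and lymphoid genes of the marrow were lower in MHPJ, and no member of these lists was higher. Of 8 marrow stroma genes tested 4 were lower, of 12 endothelial genes 4, and of 14 T and NK cell genes 8. Without replicate 2 these counts were 7, 10 and 11. The share of all genes tested that were lower was 9.5%, and 18.5% without replicate 2. LEPR, the leptin receptor of marrow stromal cells, was at 24.7, 33.1 and 27.2 RPKM in MHLBJ and at 0.41, 0.34 and 0.44 RPKM in all 3 MHPJ libraries (log2 fold change -6.08 ± 0.26 SE, edgeR adjusted p = 0.00207). CXCL12, the chemokine that holds blood stem cells in the marrow, was at 147, 161 and 105 RPKM against 6.04, 24.1 and 9.15 RPKM. PECAM1, an adhesion protein of vessels, was at 232, 211 and 233 RPKM against 8.79, 56.3 and 9 RPKM. CD3E, a chain of the T cell receptor complex, was at 22.2, 22.5 and 35.7 RPKM against 4.70, 3.06 and 1.48 RPKM. Replicate 2 was the highest MHPJ library for CXCL12 and PECAM1 but not for LEPR or CD3E.

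Blood-forming cells left a weaker signal. None of the 12 neutrophil genes tested and neither of the 2 platelet genes tested was called, and EBF1 was the only one of 7 B cell genes called, at 14.7, 9.10 and 14.3 RPKM in MHLBJ against 0.37, 2.66 and 0.51 RPKM. EBF1 is also expressed by fat cells and marrow stroma. CD68, a lysosomal protein of macrophages and osteoclasts, was at 168, 143 and 54.5 RPKM in MHLBJ against 11.8, 5.56 and 3.07 RPKM, and it was the only one of 10 microglia and macrophage genes called, whereas without MHPJ replicate 2 the calls were 2 higher and 2 lower of 11. Over all genes tested, 9.5% were lower and 14.7% higher, and 18.5% and 22.8% without replicate 2. C1QB, a complement chain that microglia and macrophages share, was at 168, 38.0 and 96.1 RPKM in MHPJ and at 168, 186 and 46.2 RPKM in MHLBJ, so the tissues overlapped. Haptoglobin, which the files give by description and which was picked after its values were seen, was at 702, 349 and 664 RPKM in MHLBJ against 1.04, 22.6 and 0.63 RPKM.

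HOX genes, the transcription factors that set position along the body axis and the limb, separated the tissues. They are silent in the forebrain, from which the posterior lobe arises, and active in limb and trunk. Of 33 HOX genes found by symbol, 21 were tested. Of these, 19 were lower in MHPJ and none was higher (23 of 24 lower without replicate 2), against 9.5% of all genes tested being lower, and 20 had libraries that did not overlap, all lower in MHPJ. The median log2 fold change was -6.91, and -5.22 with the genes that had no read in MHPJ set at their bound. The summed level was 5.50, 5.90 and 3.64 RPKM in MHPJ and 172, 143 and 136 RPKM in MHLBJ, and 12 of the genes kept the call with any one library left out. The filter on low counts kept genes with enough reads in either group, and 6 of the 21 had no read in MHPJ. Those 6 entered through MHLBJ alone, so that only a lower call was open to them. At these MHPJ levels, the counts of HOX genes lower and not overlapping were largely set by the filter. HOXC9 had no read in MHPJ and was at 16, 23.9 and 17.5 RPKM in MHLBJ, which made it at least 79.8-fold lower in MHPJ. HOXC6, HOXC10, HOXD11, HOXA11 and HOXB3, which also had no read in MHPJ and were named for that reason, were at least 27.3-fold, 18.1-fold, 7.78-fold, 8.23-fold and 4.39-fold lower. HOXA7 had 3 reads in all of MHPJ, and its ratio was 137 with a 95% counting interval of 46.7 to 668. HOXA5 was at 0.34, 0.42 and 0.16 RPKM in MHPJ against 25.1, 9.64 and 12.1 RPKM (log2 fold change -5.59 ± 0.60 SE, edgeR adjusted p = 0.00546).

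The exceptions among the HOX genes tested were HOXD8 and HOXD1. HOXD8 was at 0.08, 4.16 and 0 RPKM in MHPJ and at 36.3, 30.6 and 30.0 RPKM in MHLBJ, and it was called only without replicate 2 (edgeR adjusted p = 0.0836 with it and 0.000197 without). HOXD1 was at 4.25, 0 and 2.42 RPKM in MHPJ and at 1.35, 1.01 and 0 RPKM in MHLBJ and overlapped. Both low-numbered and high-numbered genes of the clusters were active in the long bone, from HOXA3 at 5.18, 3.95 and 6.16 RPKM to HOXA13, a gene of the most distal limb, at 5.27, 4.44 and 5.63 RPKM.

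**Figure D4:**
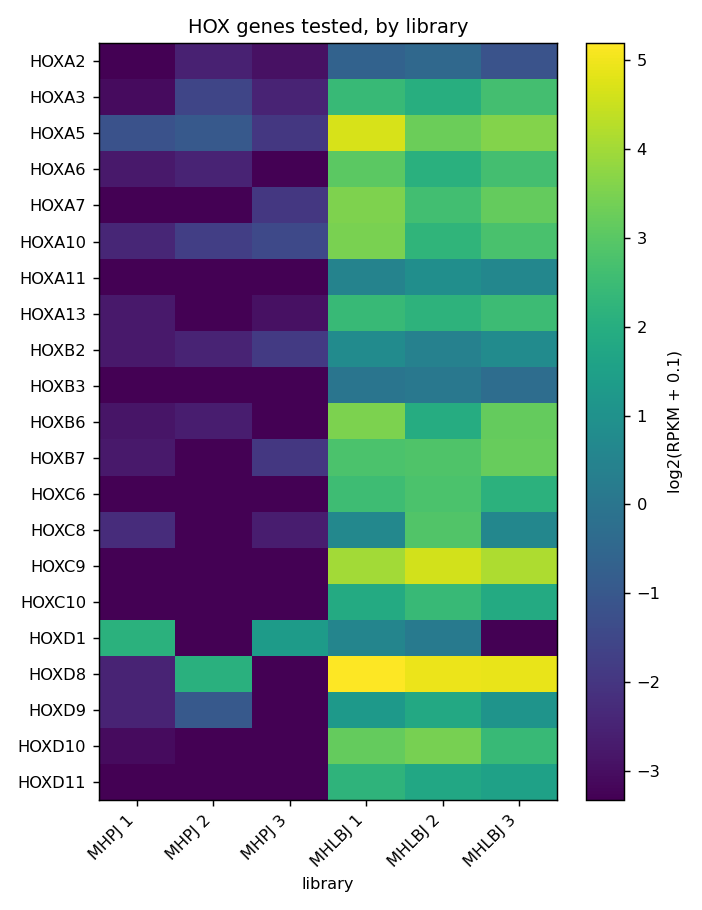
Level of the 21 HOX genes tested (rows) in the 6 libraries (columns), coloured by log2(RPKM + 0.1). The 3 MHLBJ columns are high for most genes, the 3 MHPJ columns are near the floor, and HOXD8 in MHPJ replicate 2, at 4.16 RPKM, and HOXD1 in MHPJ replicates 1 and 3, at 4.25 and 2.42 RPKM, are the visible exceptions.

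Growth hormone signalling is the axis the study was concerned with. GHR, the growth hormone receptor, was at 136, 115 and 135 RPKM in MHLBJ and at 3.36, 6.70 and 3.41 RPKM in MHPJ. The long bone libraries were close together and did not overlap with MHPJ, the log2 fold change was -4.78 ± 0.36 SE (edgeR adjusted p = 0.00351), and GHR kept the call with any one library left out. GH itself did not pass the test (log2 fold change -0.18 ± 1.59 SE, edgeR adjusted p = 0.942), and without MHPJ replicate 2 it was lower in MHPJ with 0 and 2 reads in the remaining MHPJ libraries. IGF1, the growth factor that GH induces, was at 12.6, 30.0 and 18.4 RPKM in MHLBJ and at 2.51, 4.09 and 1.73 RPKM in MHPJ (log2 fold change -2.83 ± 0.49 SE, edgeR adjusted p = 0.0139). With a library left out, the adjusted p of IGF1 rose above 0.05 in 3 of 6 fits, at 0.0545 without MHLBJ replicate 2, 0.054 without MHLBJ replicate 3 and 0.0557 without MHPJ replicate 1.

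Over all genes tested, 9.5% were lower in MHPJ, and 18.5% without MHPJ replicate 2. Of 13 genes of the GH and IGF axis tested, 5 were lower in MHPJ and none was higher, with a median log2 fold change of -1.36, and without replicate 2 this was 8 of 14. The other 3 act downstream of the receptors and were named for that. JAK2, the kinase bound to GHR, was at 35.5, 33.9 and 23.7 RPKM in MHLBJ against 11.2, 12.9 and 10.7 RPKM, STAT5A, which it activates, at 12.6, 11.1 and 14.8 RPKM against 2, 6.14 and 1.45 RPKM, and IRS1, an adaptor of the insulin and IGF1 receptors, at 3.71, 3 and 3.04 RPKM against 1.82, 1.04 and 0.75 RPKM. None of these 3 overlapped between the tissues. IGFBP4, a binding protein that holds back IGF, was at 110, 117 and 80.3 RPKM in MHLBJ and at 6.52, 68.8 and 11.8 RPKM in MHPJ, where replicate 2 again stood apart, and it was called only without that library (edgeR adjusted p = 0.173 with it and 0.000913 without).

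WNT ligands and their frizzled receptors moved in both directions. WNT10B, which favours bone over fat, was at 11.9, 1.54 and 9.17 RPKM in MHLBJ against 0.62, 0.44 and 0.49 RPKM, and WNT7B was at 3.09, 10.6 and 3.29 RPKM in MHPJ against 0.27, 0.27 and 0.41 RPKM. Of 9 WNT genes tested, 1 was higher and 2 were lower, the second being WNT1 at 6.76, 0.63 and 3.43 RPKM in MHLBJ. Without MHPJ replicate 2, 12 WNT genes were tested and 5 were higher and 3 lower. Of 6 frizzled receptors tested, FZD4 and FZD8 were lower in MHPJ and FZD2 and FZD3 were higher, with FZD4 at 2.09, 4.64 and 1.83 RPKM against 16.7, 17.0 and 13.1 RPKM, and without replicate 2 FZD1 and FZD6 were lower as well. Axon guidance families also split, with 9 of 53 semaphorin, ephrin and netrin family genes higher and 6 lower, and 18 and 14 of 54 without replicate 2. EFNA1, an ephrin of vessels, was at 98.7, 107 and 111 RPKM in MHLBJ against 11.1, 23.3 and 8 RPKM, whereas PLXNB3, a semaphorin receptor of oligodendrocytes chosen after its values were seen, was at 4.63, 12.4 and 4.43 RPKM in MHPJ against at most 0.12 RPKM. Over all genes tested, 14.7% were higher and 9.5% lower, and without replicate 2 the shares were 22.8% and 18.5%.

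Immediate early genes, which respond within minutes to stimulation or handling, were lower in MHPJ for 7 of 17 tested and higher for none, with a median log2 fold change of -1.04, and without replicate 2 for 8 and 1. JUN, a subunit of the AP-1 factor, was at 363, 323 and 407 RPKM in MHLBJ against 137, 135 and 154 RPKM (log2 fold change -1.29 ± 0.18 SE, edgeR adjusted p = 0.00840), and EGR1 was at 90.1, 34.0 and 52.2 RPKM against 17.0, 5.94 and 8.56 RPKM. FOS, the partner of JUN that was named after its values were seen, was at 29.9, 8.77 and 31.6 RPKM against 22.9, 19.4 and 10.9 RPKM and overlapped. Of 23 cell cycle genes tested, PCNA and MCM7, both of the DNA replication machinery, were lower in MHPJ, a share near the 9.5% of all genes tested, and without replicate 2 the count was 7, where 18.5% of all genes tested were lower. PCNA was at 44.4, 41.2 and 51.0 RPKM in MHLBJ against 20.9, 27.9 and 12.6 RPKM. AURKB, a mitotic kinase, was at 140 RPKM in MHPJ replicate 2 and at no more than 2.11 RPKM in the other 5 libraries.

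Whether the tissue difference of MHs equalled that of DPs was tested as an interaction of breed and tissue over the 12 juvenile libraries. Of 15417 genes tested, 471 (3.06%) had a higher difference, pituitary minus long bone, in MHs than in DPs and 277 (1.8%) a lower one. The median interaction over all genes was 0.18 on the log2 scale, and without TMM scaling it was -0.17 and the split turned to 346 higher and 666 lower. Of the 5 hormone genes of the anterior lobe 3 had a lower difference in MHs, of 19 cartilage genes 11 had a higher one, and of 16 erythroid genes 9. The first of these lists was high in DPPJ and not in MHPJ. The cartilage list summed to 919.6, 1564 and 8296 RPKM in DPLBJ replicates 1, 2 and 3 and to 92.0 to 148 RPKM in MHLBJ, so that all 3 DPLBJ libraries were above it. Within the list COL2A1 was at 0.88, 668 and 1984 RPKM in DPLBJ, and CHAD at 535, 87.9 and 501 RPKM. The erythroid list summed to 11.0, 7061 and 3922 RPKM in DPLBJ, with HBB at 0, 6165 and 2786 RPKM. DPLBJ replicate 1 was therefore as low as MHLBJ in COL2A1 and in red cell genes, but not in CHAD.

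The interaction of GHR was -2.58 (edgeR adjusted p = 0.0282, and between 0.000298 and 0.097 over the other settings tried). The call was lost with a replicate block and with any 1 library left out other than MHPJ replicate 2, DPLBJ replicate 1 or DPLBJ replicate 2. In DPs GHR was at 64.7, 34.6 and 27.0 RPKM in long bone and at 10.8, 10.3 and 13.5 RPKM in pituitary, so the receptor was higher in long bone than in pituitary in both breeds and the gap was wider in MHs. Of 14 myelin genes tested, CNP alone had a called interaction, at 3.41 (edgeR adjusted p = 0.0169). MBP had an interaction of 2.70 that was not called (edgeR adjusted p = 0.117). Glial levels varied within DPPJ too, with GFAP at 11.0, 1393 and 71.2 RPKM in replicates 1, 2 and 3. FABP4 and ADIPOQ had interactions of 0.05 and -1.28 that were not called (edgeR adjusted p = 0.994 and 0.583).

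**Figure D5:**
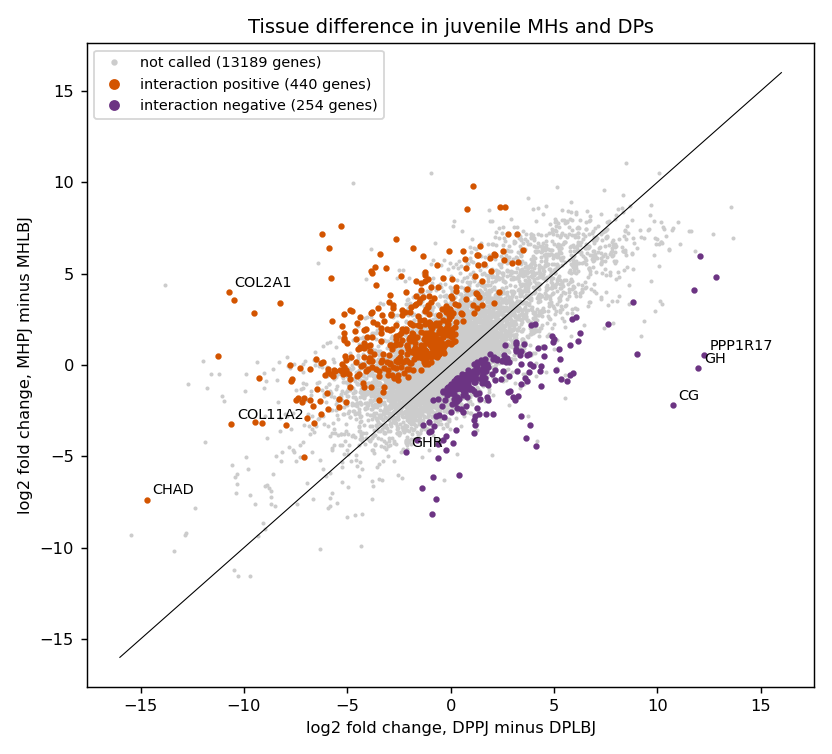
The log2 fold change of pituitary over long bone in juvenile DPs (horizontal axis) and juvenile MHs (vertical axis) for genes tested in both breeds, with the line marking equality. The 440 orange genes had a higher and the 254 purple genes a lower difference in MHs by the interaction test, and GH, CG and PPP1R17 lie far to the right near or below 0 on the MH axis while COL2A1 lies far to the left.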

How the data were processed

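RNA was extracted from ground pituitary and long bone of juvenile and adult female horses, depleted of ribosomal RNA and made into directional libraries that were sequenced by the authors. Per the labels, base calling used bcl2fastq, alignment TopHat2 and testing edgeR. The genome build is given in the study as EquCab 3.0, and the study's methods name Salmon for transcript abundances whereas the labels name TopHat2, so which tool gave the deposited gene counts is not settled. The deposited count table holds whole read counts of 24232 genes, not normalised, and the authors also deposited RPKM values of 24248 genes, in which length and library size had been divided out. The 6 libraries compared here had 11433209 to 22317330 reads on genes. Genes were identified by the symbol given in the files, and 8102 genes had none. Genes of near-identical copies, such as the globins, may share reads.

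Groups were taken from the sample labels, 3 libraries each. Replicates of a group differed by more than counting error, with chi-square per degree of freedom of 45.0 to 357, and none was counted as a duplicate. Counts were tested with edgeR 4.0.16 in R 4.3.3 (TMM scaling, filterByExpr with a minimum count of 10, quasi-likelihood test, Benjamini-Hochberg adjustment over all genes tested). DEGs had an adjusted p under 0.05 and a fold change over 2, and log2 fold changes are MHPJ minus MHLBJ. A gene near 0 in MHPJ or MHLBJ passed the filter through the other group, which largely fixed the direction of its call. An exact permutation test of 3 against 3 libraries cannot give a p below 0.1 and was not used. The breed by tissue interaction was fitted over the 12 juvenile libraries. limma 3.58.1 on log2(RPKM + 1) and log2(RPKM + 0.1), DESeq2 1.42.0, the edgeR exact test, other scalings, filters, thresholds and sets of libraries, a replicate block and fits without each library were alternatives. Scripts were tested on simulated counts.

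A fold against a group with no read is a lower bound at a floor of 3 reads per library, and with 1 to 3 reads it is a ratio with an exact 95% interval. Floors and intervals cover counting error only. The text names the 10 DEGs with the largest change in each direction (symbol, mean of at least 10 RPKM in the higher group, libraries not overlapping), the 4 members with the highest mean RPKM of each of 35 marker and pathway lists, GH, PRL, POMC, CGA (CG in the files), AVP, OXT, GHR, IGF1, GFAP, MBP, HBB and COL2A1, and the 5 genes with the largest called interaction in each direction and at least 10 RPKM in a group. Some genes that this rule chose are not reported here. Members outside this rule, including those named because few passed or few did not, were chosen after their values were seen. Members and lists were chosen with earlier results of these data known.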

Additional observations from a re-analysis of the deposited data

Results flagged for a closer look

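The tissue difference of juvenile MHs differed from that of juvenile DPs for 748 of 15417 genes by the interaction test in edgeR. Among genes named by the rule, the largest lower differences in MHs were those of genes high in DPPJ, with interactions on the log2 scale of -12.99 for CG, -12.17 for GH, -11.66 for PPP1R17, -11.16 for PRL, -10.84 for LHX3 and -10.13 for POMC. PPP1R17, a phosphatase regulator, was at 38.9, 36.5 and 45.5 RPKM in DPPJ and at 0.61, 0.79 and 1.35 RPKM in MHPJ, and LHX3, a factor required for the anterior lobe, at 16.4, 16.4 and 24.3 RPKM and at most 0.05 RPKM. PPP1R17 kept the call under every setting tried (edgeR adjusted p of at most 0.0396), and each of the other 5 lost it under at least 5 settings. CLIC6 (-3.33), GHR (-2.58) and EFNA1 (-2.53) also had lower differences.

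The largest higher differences were those of COL2A1 (14.75) and of red cell genes, namely HEMGN (14.60), AHSP (14.57), HBZ1 (14.08) and SLC4A1 (13.91). HEMGN, a nuclear protein of red cell precursors, was at 0.26, 210 and 233 RPKM in DPLBJ replicates 1, 2 and 3, at 0.04, 0.46 and 0.54 RPKM in MHLBJ and at 0.43, 13.1 and 0.33 RPKM in MHPJ. These 5 genes were thus high in 2 of the 3 DPLBJ libraries and raised in MHPJ replicate 2. Each of them lost the call under at least 10 settings. Other genes named by the rule with a higher difference were COL9A1 (12.92), SPTB (9.53), COL11A2 (7.40), CHAD (7.30), TMEM132B (6.30), CNP (3.41) and MMP7 (1.85). The part of differing tissue pieces in these values was not tested.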

How the results depend on the processing

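With all 6 libraries kept, the number of tissue DEGs was 3465 and lay within 1.5 times of this under every alternative but one, from 3026 (limma on log2(RPKM + 1)) to 5159 (DESeq2). With the replicate block it was 2261. Same-numbered libraries of the 2 tissues had deviations from their group means that correlated at -0.161, 0.102 and 0.297, so the numbers were not taken to pair the samples, and only number 3 correlated best with its own number on both sides. With 1 library left out the count ranged from 873 (without MHLBJ replicate 3) to 6217 (without MHPJ replicate 2). The interaction count of 748 was 3388 at an unadjusted p under 0.05, 2405 with DESeq2, 1464 and 1308 with limma on log2(RPKM + 1) and log2(RPKM + 0.1), 26 with the replicate block, and from 26 (without DPPJ replicate 3) to 1817 (without MHPJ replicate 2) with 1 library left out. DESeq2 tested 22312 and 23285 genes, more than edgeR, and the cause of the other changes was not tested.

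Over 140 named genes and the alternatives that kept all libraries, 1547 of 1664 tissue values stayed on their side of the threshold, 34 lost and 83 gained the call, and none turned. With 1 library left out, 200 of 839 lost the call and 4 turned, all without MHPJ replicate 2, with leave-one-out ranges of -2.69 to 1.05 for DES, -4.50 to 6.84 for AURKB, -1.10 to 0.38 for SOX13 and -2.39 to 4.18 for HBZ1. Of the list counts, 110 of 840 moved by over 1.5 times with all libraries and 159 of 420 with 1 left out. With 3 libraries a group and 1 MHPJ library apart, a gene that missed the threshold is not shown to be equal in both tissues.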
